A study of Mus musculus with 4 samples.

Results

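The Hox genes of clusters A to D were examined in the open chromatin of mouse inguinal white adipose tissue (iWAT), the subcutaneous fat pad of the groin. Members were the protein-coding genes of the GENCODE mm10 annotation whose symbol is Hoxa, Hoxb, Hoxc or Hoxd followed by a number, which gave 39 genes, with 11 in HoxA, 10 in HoxB, 9 in HoxC and 9 in HoxD. Of these, 36 had at least 1 deposited peak on the gene body or within 2 kb upstream, among 17173 protein-coding genes with a peak in all, and Hoxa2, Hoxa11 and Hoxb1 had none. The 36 genes held 103 of the 189598 deposited peaks.

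Single-nucleus ATAC-seq reads the DNA that the Tn5 transposase can enter and assigns it to nuclei by barcodes. Nuclei came from iWAT of male C57BL/6 mice aged 8 weeks, kept at room temperature (22 °C, day 0, D0_RT), in the cold (6.5 °C) for 1, 3 or 7 days (D1_C, D3_C, D7_C) or given the β3-adrenergic agonist CL-316,243 (CL, 1 mg/kg) for 1, 3 or 7 days (D1_CL, D3_CL, D7_CL), with 3 mice in each of the 7 groups. The authors assigned the 32552 nuclei of the 21 mice to 12 clusters. Every entry of the deposited matrix was 0 or 1, so a count was a nucleus with reads in a peak. The counts of all nuclei that 1 mouse gave to 1 cluster make a library, and 223 of 246 libraries had at least 10 nuclei and were used. A gene level is given as counts per 1000000 gene counts of the library (gene CPM) and a peak level as counts per 1000000 peak entries of the library (peak CPM), with the SD over libraries, each from 1 mouse.

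The mice had 1111 to 2021 nuclei and 1340376 to 6916698 counts each, and 8739 nuclei carried barcode letters that also occurred in another mouse. Clusters differed in size and depth, from 283 nuclei in 10 libraries (VSMC) to 11967 nuclei in 21 libraries (B cells), and the median counts per nucleus ran from 907 in Cd4 T cells and 974 in B cells to 2561 in white and 3087 in beige adipocytes. The summed level of 5 adipocyte marker genes was 1617 ± 184 gene CPM in white adipocytes and 196 ± 19.4 in B cells. The cluster annotated as VSMC went against its label: 6 skeletal muscle genes summed to 1042 ± 129.9 gene CPM there and to between 53.3 and 99.4 in the other clusters, while 6 smooth muscle and mural genes were highest in APC2 (687 ± 97.1) and stood at 161 ± 56.4 in the cluster annotated as VSMC. It is called the VSMC cluster here, as annotated. The clusters were made by the authors from the same nuclei, so a test between clusters describes those clusters and is not independent of how they were drawn.

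Hox genes encode homeodomain transcription factors that give cells their position along the body axis. They lie in clusters within which the order on the chromosome follows the order in which the genes act from head to tail, so that low paralog numbers mark anterior and high numbers posterior positions. Many adult mesenchymal cells, fat cells and their progenitors among them, keep the Hox pattern of the place where they arose, and Polycomb and Trithorax complexes hold such patterns in place.

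The clusters lie on chromosomes 6 (HoxA), 11 (HoxB), 15 (HoxC) and 2 (HoxD). Genes overlap in them, and 44 of the 103 Hox peaks (42.7%) counted for 2 or more genes, against 5.61% of all peaks on genes. The GENCODE model of Hoxc5 (chr15:102967443-103017429) spans Hoxc6 to Hoxc10 and held 27 peaks, and that of Hoxa3 (chr6:52169062-52213336) spans Hoxa4 to Hoxa6 and held 15. Values of Hoxc5 and Hoxa3 are therefore those of a stretch of their cluster, and Hoxd3 and Hoxd4 overlap. Hoxa3 to Hoxa6, Hoxc6 to Hoxc10, Hoxd3 and Hoxd4 had no peak that counted for them alone. Counts of members called are thus not counts of independent genes. For sums over clusters each peak was credited once, to the nearest RefSeq gene start, which gave 29 peaks to HoxA, 23 to HoxB, 38 to HoxC and 13 to HoxD.

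The stretches printed here, from the GRCm38.p6 genome, are parts of peaks named in the comparisons that lie outside annotated exons. Levels were measured for whole peaks and not for the stretches. Bases are written 5′ to 3′ on the strand of the gene, with CG dinucleotides in capitals, since Hox starts are rich in them. The first pair is from peaks that had reads in immune as well as adipocyte nuclei. The Hoxb4 stretch (chr11:96318120-96318266, plus strand, 4 CG) ends just before the annotated start of Hoxb4, and the Hoxa4 stretch (chr6:52191840-52192039, minus strand, 33 CG) lies upstream of Hoxa4 and within an intron of the longer Hoxa3 model.
Hoxb4 start peak: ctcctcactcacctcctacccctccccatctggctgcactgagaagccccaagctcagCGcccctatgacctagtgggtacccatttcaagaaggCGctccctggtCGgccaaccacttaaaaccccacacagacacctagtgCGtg
Hoxa4 start peak: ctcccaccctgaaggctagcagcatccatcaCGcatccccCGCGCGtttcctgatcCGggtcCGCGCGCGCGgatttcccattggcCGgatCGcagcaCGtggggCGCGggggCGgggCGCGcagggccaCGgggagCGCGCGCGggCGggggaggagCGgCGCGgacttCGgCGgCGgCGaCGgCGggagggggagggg
The next is from a peak with lower levels in immune nuclei and in vascular endothelial cells (VEC) than in white adipocytes. The Hoxc6 stretch (chr15:102999405-102999604, plus strand, 12 CG) lies in an intron of Hoxc6 and of the longer Hoxc5 model.
Hoxc6 intron peak: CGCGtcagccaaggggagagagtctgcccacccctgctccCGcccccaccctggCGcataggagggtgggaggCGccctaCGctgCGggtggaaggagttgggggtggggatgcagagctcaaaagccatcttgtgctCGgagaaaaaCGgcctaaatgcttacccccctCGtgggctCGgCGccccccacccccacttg
The last set is from peaks that stood at different levels among the adipocyte and stromal clusters. The Hoxa5 stretch (chr6:52204588-52204722, minus strand, 21 CG) lies just upstream of Hoxa5, in a peak with its highest mean in the VSMC cluster. The Hoxd10 stretch (chr2:74691724-74691923, plus strand, 14 CG) ends just before the GENCODE start of Hoxd10, in a peak with its highest mean in VEC. The Hoxa9 stretch (chr6:52227786-52227985, minus strand, 5 CG) lies upstream of the RefSeq start of Hoxa9, in an intron of its longer GENCODE model. The peak that holds it had its highest mean in APC1, the first of 2 clusters annotated as adipocyte progenitors.
Hoxa5 start peak: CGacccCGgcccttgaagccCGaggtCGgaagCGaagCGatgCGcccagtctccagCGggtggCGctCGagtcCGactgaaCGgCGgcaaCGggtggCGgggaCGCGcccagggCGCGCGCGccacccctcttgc
Hoxd10 promoter peak: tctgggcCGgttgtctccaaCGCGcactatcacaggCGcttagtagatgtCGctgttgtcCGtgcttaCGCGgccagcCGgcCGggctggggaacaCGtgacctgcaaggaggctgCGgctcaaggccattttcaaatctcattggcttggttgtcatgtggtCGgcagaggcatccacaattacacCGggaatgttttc
Hoxa9 upstream peak: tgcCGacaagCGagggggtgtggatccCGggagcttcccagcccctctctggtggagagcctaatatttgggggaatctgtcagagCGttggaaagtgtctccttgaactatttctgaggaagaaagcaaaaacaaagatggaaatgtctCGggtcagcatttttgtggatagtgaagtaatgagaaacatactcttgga

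Hox peaks were richer in CG dinucleotides than peaks in general. In the 200 bases around a peak's centre, the median was 10 CG in the 103 Hox peaks and 2 in all 189598 peaks, and the median GC content was 58.5% against 48.5%. HoxD peaks had a median of 17 CG, HoxA peaks 12, HoxB peaks 9 and HoxC peaks 8.5. Short motifs were searched on both strands of the same windows. The PBX-HOX word TGATNNAT was in 7.77% of Hox peaks and 6.44% of all peaks, the MEIS word TGACAG in 12.6% and 15.5%, the homeodomain core TAAT, which can overlap TGATNNAT, in 39.8% and 55.2%, the CTCF core AGGGGGC in 3.88% and 3.99%, and the ETS word CCGGAA in 5.83% and 4.17%. Of the sequences shown, the Hoxa4 stretch held 1 PBX-HOX word, the Hoxa9 stretch 1 MEIS word and 2 TAAT cores and the Hoxd10 stretch 1 TAAT core. RefSeq promoters of GRCm38.p6 (300 bases) were found for 22 Hox genes, with 24 promoters against 32851 in all, and had a median of 14.5 CG against 7. Among them TAAT was in 79.2% of the Hox promoters and 58.0% of all, and TGATNNAT in 16.7% and 8.85%. These matches describe letters only.

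All Hox clusters together were open in adipocytes and stroma and far less in immune cells. The 103 peaks summed to 972 ± 102 peak CPM in white adipocytes (SD, n = 21), with a lowest library of 819, a median of 972 and a highest of 1190. In B cells the sum was 128 ± 18.0 (n = 21), with 93.0, 132 and 157. White adipocyte and B cell libraries did not overlap. Beige adipocytes stood at 956 ± 123 (n = 19), APC1 at 1033 ± 189 (n = 20), APC2 at 1052 ± 159.6 (n = 19), VEC at 983 ± 165 (n = 15) and the VSMC cluster at 1089.9 ± 153 (n = 10), and neighbours in the order of these means differed by less than 1 SD. Immune clusters were lower, at 216 ± 72.2 in macrophages (n = 21), 278 ± 97.2 in dendritic cells (n = 17), 228 ± 45.4 in T cells (n = 20), 200.3 ± 44.7 in Cd4 T cells (n = 20) and 222 ± 33.3 in Cd8 T cells (n = 20). The lowest adipocyte or stromal library, from VEC, was at 505 and the highest immune library, from dendritic cells, at 473, so no immune library reached an adipocyte or stromal one.

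**Figure D1:**
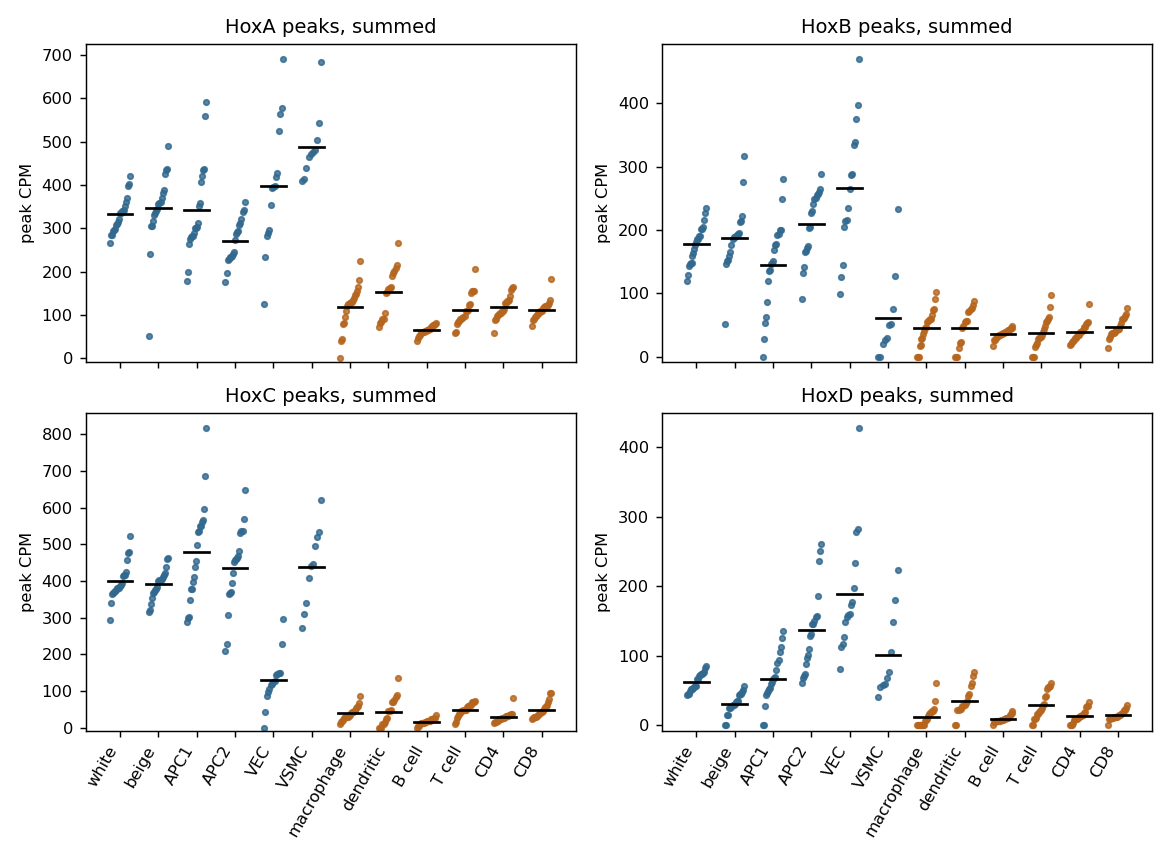
Summed accessibility of the HoxA, HoxB, HoxC and HoxD peaks (panels, peak CPM on the vertical axis) in each library, by cluster (horizontal axis); each point is 1 mouse, points of a cluster are set out from lowest to highest, and the black line is the mean. Mean HoxC is 129 in VEC and 400.1 in white adipocytes, mean HoxB is 61.3 in the VSMC cluster and 177 in white adipocytes, and immune clusters are low for HoxA and HoxC.

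Within each mouse all nuclei of the adipocyte and stromal clusters were pooled, and so were those of the immune clusters. The Hox level of the first pool was 5.68 ± 0.91 times that of the second (SD, n = 21), from 4.00 to 7.99. Clusters with more counts, such as white adipocytes and B cells, weighed more in this ratio. The ratio was 3.75 ± 0.54 for peaks nearest to anterior genes (paralogs 1 to 4), 6.98 ± 2.48 for central genes (5 to 8) and 8.22 ± 1.34 for posterior genes (9 to 13). The lowest posterior ratio, 6.66, was above the highest anterior ratio, 4.85. For the share of nuclei with any such peak the ratios overlapped, with a lowest posterior of 7.88 and a highest anterior of 8.79. With nuclei of at least 2000 counts they nearly touched, at 4.78 (posterior, 20 mice) and 4.77 (anterior). The RefSeq start of Hoxa3 lies between those of Hoxa6 and Hoxa7, so its 3 peaks counted as anterior lie among central genes. The ratio without these peaks was not computed. By nuclei, 79.7% of white adipocyte nuclei had at least 1 Hox peak (4730 of 5935, exact 95% interval 78.7 to 80.7) and 14.3% of B cell nuclei (1711 of 11967, 13.7 to 14.9), intervals that cover counting error only. White adipocyte nuclei were deeper, and among nuclei of at least 2000 counts the shares were 94.7% and 34.0%. Beige adipocytes were at 84.9%, the VSMC cluster at 75.6%, APC2 at 75.4%, APC1 at 67.5% and VEC at 62.1%, while the other immune clusters lay between 18.8% (Cd4) and 35.9% (dendritic cells).

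Gene by gene, several HoxC genes and Hoxa9 differed most between the kinds of cluster. Other central or posterior genes of HoxA and HoxC, such as Hoxa7 and Hoxc11, differed less. Hoxc5 was at 459 ± 57.6 gene CPM in white adipocytes (lowest, median and highest library 291, 456 and 581) and 17.6 ± 10.1 in B cells (0, 20.1 and 40.4). Hoxa9, which acts in posterior identity and in blood progenitors, was at 83.6 ± 12.5 in white adipocytes (58.1, 82.7 and 108) and 4.84 ± 2.53 in B cells (0, 4.04 and 9.29). Hoxc9, a marker of white subcutaneous fat, was at 88.1 ± 13.2 (63.4, 90.4 and 116) and 4.02 ± 2.14 (0, 4.05 and 8.63). For these 3 genes no B cell library reached a white adipocyte library. The share of all genes with ranges set apart in this way was not computed. Hoxc10 was at 84.3 ± 25.2 (0, 82.7 and 127) and 4.16 ± 4.06 (0, 2.77 and 13), and its white adipocyte range reached down to 0.

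The quasi-likelihood test of edgeR was run on all libraries, with the mouse as a block and Benjamini-Hochberg adjustment over all genes tested. Of the 36 members, 8 passed the filter on low counts (Hoxa3, Hoxa7, Hoxa9, Hoxa10, Hoxc5, Hoxc6, Hoxc9 and Hoxc10). All 8 were higher in the mean of the adipocyte and stromal clusters than in the mean of the immune clusters, where 36.1% of the 8911 genes tested were called higher and 45.8% lower. The log2 difference was 3.22 ± 0.09 for Hoxc5 (SE, adjusted p = 3.17e-115), followed by Hoxc6 (2.85 ± 0.13), Hoxc10 (2.66 ± 0.15), Hoxa9 (2.37 ± 0.12) and Hoxc9 (2.31 ± 0.14), and lowest for Hoxa7 (0.98 ± 0.09, adjusted p = 2e-22).

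Because a gene can pass the filter through the clusters where it is high, the same fit was run without the filter on 17173 genes, with all 36 members in it. There 32 members were called higher and 1 lower, against 33.3% and 38.1% of all genes, and the median log2 difference was 1.10 over the 36 members and -0.02 over all genes. Hoxa13, a gene of digits and the genital tract, was the one called lower (-0.20 ± 0.06, adjusted p = 0.00458). It was lower in 15 of 21 mice at levels of at most 4.28 gene CPM in the cluster means, and without the D0_RT mice the call was lost (-0.10, adjusted p = 0.077). Hoxd12 (0.01 ± 0.03, adjusted p = 0.785) and Hoxb4 (0.38 ± 0.22, adjusted p = 0.109) were not called, although Hoxb4 was higher in adipocytes and stroma in 21 of 21 mice. For Hoxb13 the fit returned an adjusted p of 1, for a gene that was higher in 20 mice and lower in 0, and the cause was not tested. Over the alternatives without the filter, Hoxc12 lost its call in 5 of 12 and Hoxb2, Hoxc11 and Hoxd1 in 2 of 12. Hoxc13 and Hoxd13 lost theirs in 1 of 12 and Hoxb8 in 1 of 11. These 7 members stayed above 0 in each alternative, and the other members called higher kept their calls.

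Summing each mouse's libraries into 1 adipocyte and stromal and 1 immune library left 22 members among 14266 genes after the filter, and these 22 were called higher, against 41.8% of all genes called higher and 47.9% lower. Here too a member could pass through the summed library in which it was high. Without the filter, an alternative chosen after seeing the data, 34 of the 36 members were called higher and 0 lower, against 47.8% and 40.4% of 17173 genes, and Hoxd12 (-0.01 ± 0.15, adjusted p = 0.966) and Hoxa13 (-0.41 ± 0.21, adjusted p = 0.0668) were not called. The median log2 difference was 2.25 over the 36 members and 0.10 over all genes. In the filtered sums the difference was 3.96 ± 0.08 for Hoxc5, 3.90 ± 0.09 for Hoxc6, 3.84 ± 0.10 for Hoxc10, 3.68 ± 0.09 for Hoxa9 and 3.68 ± 0.16 for Hoxc8, and lowest for Hoxb4, at 0.90 ± 0.08.

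**Figure D2:**
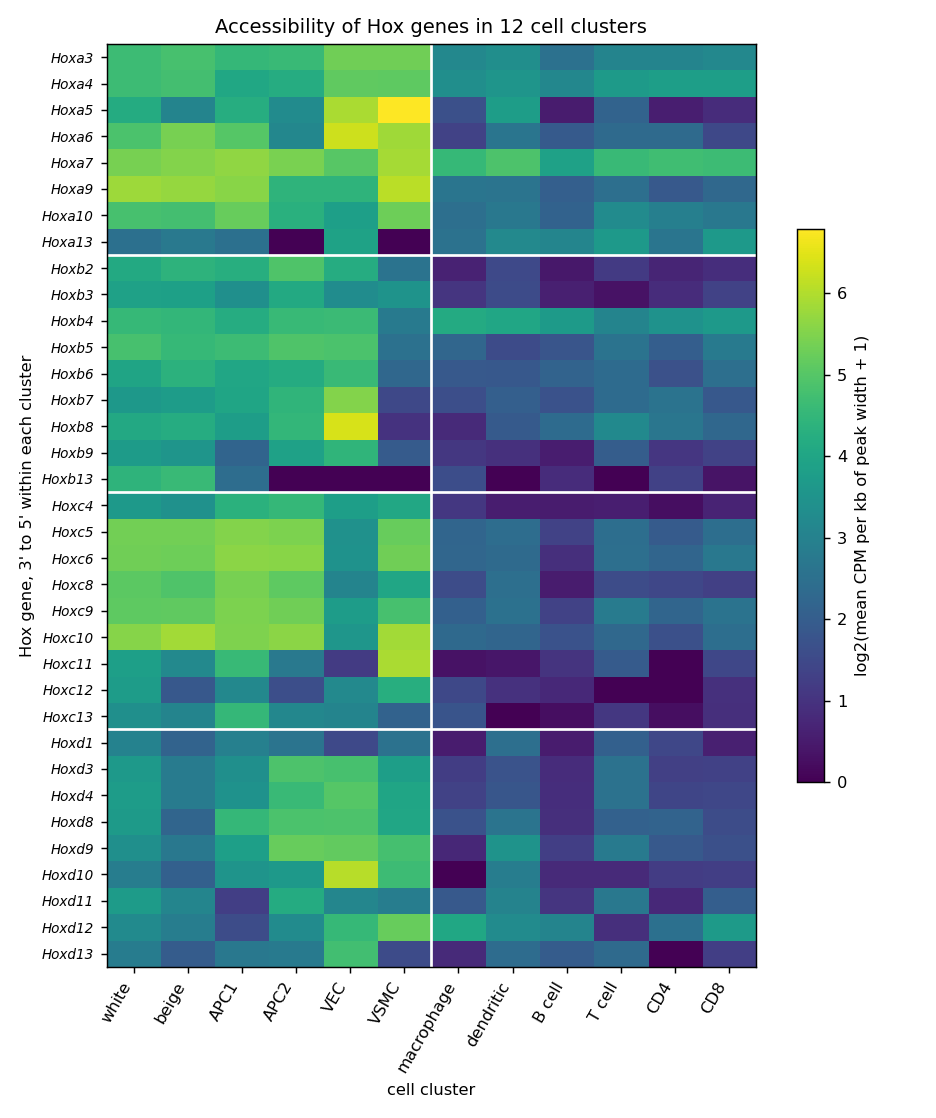
Mean level of Hox genes with a peak (rows, by cluster in chromosome order) in the 12 cell clusters (columns), as log2 of mean gene CPM per kb of peak plus 1. Per kb of peak, Hoxa9 stands at 54.5 in white adipocytes and 3.15 in B cells, while Hoxa7 keeps 13.8 and Hoxb4 12 in B cells.

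A few Hox peaks were open in immune cells too. Of the 103 peaks, 101 had a higher mean in white adipocytes than in B cells, 62 had a mean under 1 peak CPM over the immune clusters, and 9 had a mean of 5 or more there. Such counts were not made over all deposited peaks, so these have no background share beside them. The Hoxb4 start peak (chr11:96318120-96319054), which holds the first sequence shown, was at 16.6 ± 6.31 peak CPM in white adipocytes (lowest, median and highest 0, 15.9 and 32.5) and 17.1 ± 6.12 in B cells (0, 18.8 and 27.6). The second Hoxb4 peak (chr11:96319180-96320279), further into the gene, was at 19.2 ± 5.37 in white adipocytes (9.99, 17.9 and 32.2) and 4.35 ± 4.25 in B cells (0, 2.84 and 19.8). Hoxb4, known for expanding blood stem cells, thus had a start peak at similar levels in both kinds of cell and a second peak that was mostly lower in B cells.

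The Hoxa4 start peak (chr6:52191446-52192434) was at 15.4 ± 4.51 peak CPM in white adipocytes, 14.1 ± 5.89 in B cells and 23.1 ± 11.4 in Cd4 T cells. A peak nearest to Hoxa7 (chr6:52221354-52222248) was at 28.6 ± 9.56 in white adipocytes, 13 ± 5.02 in B cells and 23.7 ± 19.4 in dendritic cells. The 9 peaks open in immune clusters had a median of 13 CG in their central windows, and the other 94 a median of 9.

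In the fit over all libraries no Hox peak passed the filter on low counts. With 2 summed libraries per mouse, 32 Hox peaks were tested among 37894 peaks and 31 were called higher in adipocytes and stroma, against 44.7% of all peaks called higher and 48.6% lower. The Hoxa4 start peak was the one not called (0.20 ± 0.11, adjusted p = 0.0784), and the Hoxb4 start peak was just past the threshold (0.23 ± 0.11, adjusted p = 0.0455). The largest differences were at chr15:103009289-103009840 (3.66 ± 0.17) and chr15:103012155-103012603 (3.58 ± 0.16), both upstream of the RefSeq start of Hoxc5, and at the peak inside Hoxa9 (chr6:52226855-52227329, 3.56 ± 0.15). Peaks could pass that filter through the sums in which they were high. Without it, also chosen after seeing the data, 101 of the 103 Hox peaks were called higher and 0 lower, against 62.4% and 22.6% of the 189598 peaks. The median log2 difference was 2.29 over the Hox peaks and 0.83 over all peaks in that fit, against 2.84 and -0.13 with the filter. These medians are over different sets of peaks and cannot be compared directly. A peak in both fits, chr15:103009289-103009840, was at 3.81 without the filter and 3.66 with it. The start peaks of Hoxa4 (0.43 ± 0.12, adjusted p = 0.000358) and Hoxb4 (0.47 ± 0.12, adjusted p = 0.000111) were called without the filter. Both stood below the median of all peaks in that fit.

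**Figure D3:**
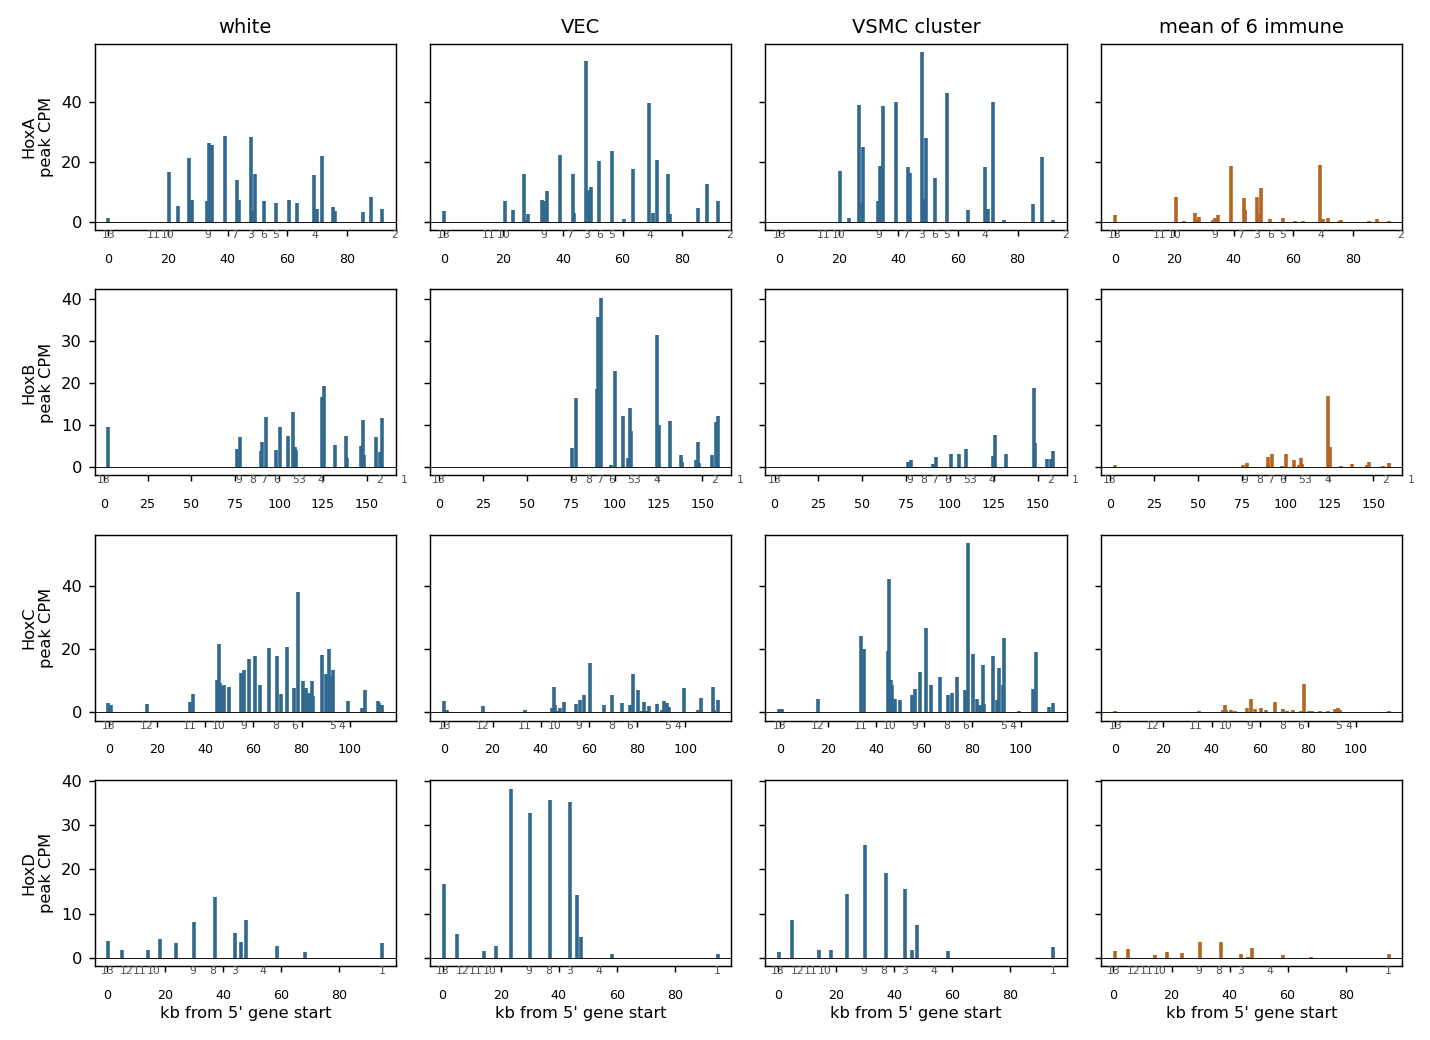
Mean peak CPM of Hox peaks (vertical axis) against its distance in kb along its cluster (horizontal axis), for white adipocytes, VEC, the VSMC cluster and the mean of the 6 immune clusters; small grey numbers mark gene starts. In HoxC the Hoxc6 intron peak stands at 38.3 in white adipocytes and 12.3 in VEC, and in HoxD the Hoxd10 peak stands at 3.40 in white adipocytes and 38.1 in VEC.

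Among the adipocyte and stromal clusters the totals were close but their make-up was not. HoxC was at 479 ± 136 peak CPM in APC1, 438 ± 109 in the VSMC cluster, 435 ± 111 in APC2, 400.1 ± 51.4 in white adipocytes and 391 ± 41.1 in beige adipocytes, and at 129 ± 68.7 in VEC. HoxB was highest in VEC and lowest in the VSMC cluster, from 266 ± 105 in VEC over 209 ± 53.8 in APC2, 188 ± 53.4 in beige adipocytes, 177 ± 31.4 in white adipocytes and 145 ± 71.2 in APC1 to 61.3 ± 71.1 in the VSMC cluster. HoxA was at 489 ± 79.8 in the VSMC cluster, 398 ± 147 in VEC, 332 ± 41.5 in white adipocytes and 271 ± 52.0 in APC2, with beige adipocytes and APC1 near white adipocytes. VEC was therefore low in HoxC and the VSMC cluster low in HoxB.

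HoxD was at 189 ± 87.4 peak CPM in VEC, 138 ± 60.7 in APC2, 101 ± 62.1 in the VSMC cluster, 66.9 ± 36.5 in APC1, 62.1 ± 13.2 in white adipocytes and 30.9 ± 15.6 in beige adipocytes. Neighbours in these orders differed by less than the sum of their SDs, except VEC and beige adipocytes in HoxC and white and beige adipocytes in HoxD. Of the 103 peaks, 27 had their highest mean in VEC, 25 in the VSMC cluster, 16 in APC1, 15 in APC2, 11 in beige and 9 in white adipocytes, and the VEC and VSMC clusters were also those with the fewest nuclei. All deposited peaks were not counted in this way.

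Beige adipocytes, the thermogenic fat cells of iWAT, stood near white adipocytes in HoxA, HoxB and HoxC and had less HoxD. Hoxd8, a gene of the trunk, was at 17.5 ± 6.63 gene CPM in white adipocytes (lowest, median and highest 6.19, 16.7 and 31.8) and 5.36 ± 6.23 in beige adipocytes (0, 1.80 and 17.6). The ranges overlapped, and Hoxd8 was lower in 18 of the 19 mice with both libraries, Hoxd4 in 18 and Hoxd3 in 17. Hoxd3 and Hoxd4 share peaks, so their values are not independent. Hoxc9 was at 88.1 ± 13.2 and 88.2 ± 28.1, and Hoxc10 at 84.3 ± 25.2 and 104 ± 33.5, differences smaller than their SDs.

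In the fit without the filter 6 of the 36 members were called lower in beige than in white adipocytes and 0 higher, where 18.5% of all genes were called lower and 7.97% higher, so the share of members called lower was no larger than that of all genes. They were Hoxd8 (-0.80 ± 0.15, adjusted p = 8.77e-06), Hoxd4 (-0.66 ± 0.15, adjusted p = 0.000219), Hoxd3 (-0.63 ± 0.15, adjusted p = 0.000351), Hoxc11 (-0.43 ± 0.15), Hoxc4 (-0.38 ± 0.13) and Hoxc12 (-0.35 ± 0.09). Without TMM factors 3 members were called higher and 4 lower. For this and the other fits without TMM factors, the share of all genes called was not counted. With peaks near gene starts alone Hoxd3 and Hoxd4 were not called (-0.40 each, adjusted p = 0.107). Calls were also lost without the D1_C mice for Hoxc11 (-0.37, adjusted p = 0.119) and Hoxc4 (-0.28, adjusted p = 0.143) and without the D3_C mice for Hoxc12 (-0.31, adjusted p = 0.0746). Leaving out D3_C, D7_C, D1_CL or D3_CL also ended the call of Hoxc11 (adjusted p = 0.0645, 0.0853, 0.101 and 0.0618), and D7_C or D7_CL that of Hoxc4 (0.107 and 0.0594).

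In the filtered fit 1 of 8 members was called higher in beige than in white adipocytes and 0 lower, where 10.3% of all genes were called higher and 21.7% lower. It was Hoxa3, higher by 0.17 ± 0.07 (adjusted p = 0.0373), and higher in 15 of 19 mice. Leaving out the mice of D3_C, D7_C, D1_CL or D7_CL ended that call (adjusted p = 0.123, 0.0524, 0.0749 and 0.0556), as did DESeq2 (0.127).

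**Figure D4:**
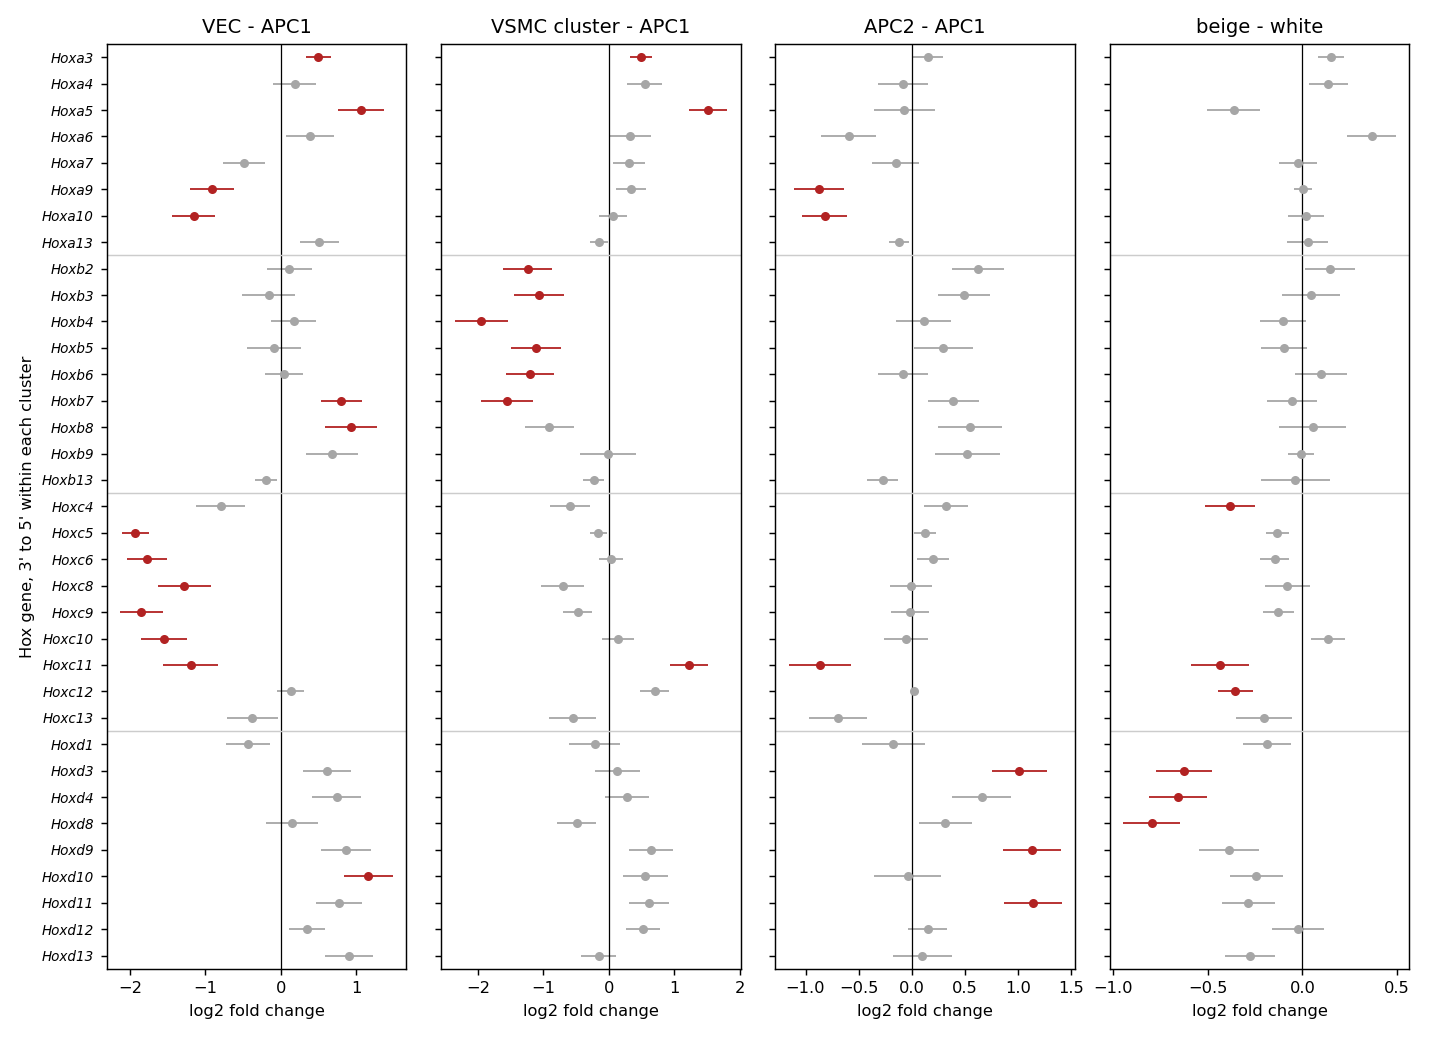
Log2 difference of Hox genes ± SE from the edgeR fit without a filter, for VEC, the VSMC cluster and APC2 each against APC1 and for beige against white adipocytes; red marks an adjusted p under 0.05, and the SE of Hoxc12 in APC2 against APC1, over 1, is not drawn. Of 9 HoxC genes 8 lie below 0 in VEC, down to -1.93 for Hoxc5, HoxB genes lie below 0 in the VSMC cluster, down to -1.95 for Hoxb4, and Hoxd8 lies at -0.80 in beige adipocytes.

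Between APC1 and white adipocytes the clearest difference was Hoxb13, a far posterior gene best known from the prostate. Hoxb13 was at 12 ± 5.66 gene CPM in white adipocytes (lowest, median and highest 0, 11.7 and 23.7) and 13.8 ± 10.3 in beige adipocytes (0, 14.2 and 35.3), with 243 and 45 counts. In APC1 it had 2 counts in 20 libraries. APC2, VEC, the VSMC cluster, dendritic cells and T cells had no Hoxb13 count, which allows levels up to 2.60, 6.22, 5.10, 2.74 and 1.43 gene CPM (3 counts over the libraries of a cluster). Hoxb13 counts were thus found mostly in adipocytes, at a single peak (chr11:96196656-96197244) near the 3′ end of the gene.

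Without the filter 1 member was called higher in APC1 than in white adipocytes and 6 lower, where 13.4% and 32.6% of all genes were called. Both shares of members were below those of all genes. Hoxb13 was lower by the largest amount (-1.23 ± 0.22, adjusted p = 3.04e-06, lower in 19 of 20 mice), followed by Hoxb9 (-0.64 ± 0.23), Hoxd11 (-0.63 ± 0.21), Hoxa9 (-0.47 ± 0.14), Hoxa3 (-0.37 ± 0.11) and Hoxc5 (-0.25 ± 0.08), and Hoxd8 was higher (0.50 ± 0.19, adjusted p = 0.0239). The comparison depended on the scaling: without TMM factors 5 members were called higher and 1 lower, the median of all genes moved from -0.15 to 0.07, and Hoxc5, which was higher in 10 and lower in 10 mice, moved to 0.11. Hoxb13 kept its call without TMM factors and without the mice of any 1 group.

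Calls of the other members were each lost without the mice of at least 1 group, apart from Hoxa9 and Hoxa3, which lost theirs with nuclei of at least 2000 counts (-0.32, adjusted p = 0.14, and -0.25, adjusted p = 0.139). Without the D0_RT mice Hoxb9 (-0.57, adjusted p = 0.0726), Hoxd11 (-0.56, 0.0642) and Hoxc5 (-0.19, 0.0613) were not called, and without the D1_CL mice neither were they (0.0861, 0.0873 and 0.0508). Hoxb9 also lost its call without D7_CL (0.109), Hoxc5 without D1_C (0.063), and Hoxd8 without D3_C (0.41, 0.145) or D3_CL (0.0515).

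In the filtered fit 0 of 8 members were higher in APC1 than in white adipocytes and 2 lower, against 20.1% and 32.6% of all genes. They were Hoxa9 (-0.39 ± 0.14, adjusted p = 0.0137) and Hoxa3 (-0.27 ± 0.10, adjusted p = 0.0203). Without TMM factors 2 members were higher and 0 lower, and the median of all genes moved from -0.06 to 0.14. The calls also changed when the fit held APC1 and white adipocyte libraries alone, chosen after seeing the data, with 8 members tested, 2 higher and 0 lower. Of the 5250 genes tested in that fit 1669 were called higher and 1756 lower. The members called were then Hoxa10 (0.50 ± 0.15, adjusted p = 0.00144) and Hoxc9 (0.37 ± 0.14, adjusted p = 0.0152), while Hoxa9 was at -0.13 ± 0.16 (adjusted p = 0.48) and Hoxa3 at -0.01 ± 0.13 (adjusted p = 0.96). Hoxa9 lost its call without the mice of D7_C (adjusted p = 0.052) or D7_CL (0.0808), and Hoxa3 without those of D0_RT (0.0977), D1_C (0.112), D3_CL (0.0683) or D7_CL (0.0688).

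Peaks of 1 gene could stand in opposite orders. Inside Hoxa9 the peak at chr6:52226855-52227329 was at 26.1 ± 4.64 peak CPM in white adipocytes (median 25.3) and 15.1 ± 24.3 in APC1 (median 2.48). The peak upstream of its RefSeq start (chr6:52227704-52228069), part of which is shown above, was at 6.99 ± 3.06 in white adipocytes (median 6.62) and 24.7 ± 23.2 in APC1 (median 17.6). A peak nearest to Hoxc9 (chr15:102976961-102977737) was at 13.5 ± 4.79 in white adipocytes, 41.8 ± 36.9 in APC1 and 30.1 ± 16.2 in APC2. None of these peaks passed the filter of the fit between clusters, so these differences were not tested.

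By mean, APC2 had less Hoxa9 and Hoxa10 than APC1 and a higher sum of HoxD peaks. Not every HoxD gene followed, with Hoxd10 higher in 7 and lower in 6 of 18 mice. APC2 is annotated as a progenitor cluster and was highest in the mural markers. There 5 progenitor genes summed to 191 ± 61.1 gene CPM, against 525 ± 187 in APC1 and 192 ± 30.1 in B cells. Hoxa9 was at 31.3 ± 26.4 gene CPM in APC2 (0, 27.1 and 82.7 as lowest, median and highest) and 71.8 ± 31.5 in APC1 (22.3, 64.9 and 143), and Hoxa10, which acts in the uterus and in blood progenitors, at 50.5 ± 35.5 and 96.0 ± 58.7. Hoxd9 was at 39.8 ± 22.1 in APC2 (0, 32.9 and 93.4) and 14.7 ± 26.9 in APC1 (0, 0 and 113). The ranges overlapped for each of these genes, with Hoxa9 lower in APC2 in 15 of 18 mice and Hoxd9 higher in 15.

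Without the filter 3 members were called higher in APC2 than in APC1 and 3 lower, against 11.7% and 8.58% of all genes. The share of members called did not exceed that of all genes in either direction. Higher were Hoxd11 (1.14 ± 0.27, adjusted p = 0.00188), Hoxd9 (1.13 ± 0.27, adjusted p = 0.000557) and Hoxd3 (1.02 ± 0.26, adjusted p = 0.000855). Lower were Hoxa9 (-0.87 ± 0.23, adjusted p = 0.00192), Hoxc11 (-0.87 ± 0.29, adjusted p = 0.0407) and Hoxa10 (-0.82 ± 0.21, adjusted p = 0.00136). Among the 8 filtered members 0 were higher and 2 lower, Hoxa9 (-0.87 ± 0.23, adjusted p = 0.00138) and Hoxa10 (-0.82 ± 0.22, adjusted p = 0.00102), against 15.1% and 10.7% of all genes.

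With peaks near gene starts alone, Hoxa9 was at -0.18 (adjusted p = 0.872) and Hoxd3 at 0.43 (0.526). With libraries of at least 30 nuclei Hoxd3 (0.48, adjusted p = 0.49) and Hoxd9 (0.70, 0.354) were not called. Without the D3_C mice the call of Hoxa9 was lost in the filtered fit (-0.68, adjusted p = 0.0666) and without the filter (0.0953), without the D7_CL mice that of Hoxd11 (0.77, 0.0916), and without the mice of D1_C, D3_C, D7_C, D3_CL or D7_CL that of Hoxc11 (0.222, 0.0735, 0.0579, 0.0807 and 0.0814).

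The VEC cluster was low in HoxC and higher in Hoxd10 and in some HoxA and HoxB genes. Its 4 endothelial marker genes summed to 823 ± 257 gene CPM, the highest of the clusters, and 2 of them had their highest mean there. The sum was 489 ± 117 in macrophages, 489 ± 68.0 in Cd4 T cells and 375 ± 140 in APC1. Hoxc5 was at 113 ± 76.4 gene CPM in VEC (lowest, median and highest 0, 133 and 243) and 524 ± 152 in APC1 (322, 514 and 983), ranges that did not overlap. Hoxc6, a thoracic gene, was at 37.7 ± 41.1 and 182 ± 59.5, and Hoxc9 at 32.8 ± 43.7 and 112 ± 66.2. Hoxc5 and Hoxc6 were lower in VEC in 15 and 15 of 15 mice.

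In the other direction, Hoxd10, a gene of the hind limb, had 17 counts in 9 of 15 VEC libraries, at 44.8 ± 44.3 gene CPM (0, 53.5 and 139), against 7.06 ± 12.3 in APC1 (0, 0 and 47.8). Hoxb7, a central trunk gene, was at 89.1 ± 74.4 in VEC (0, 69.7 and 278) and 29.3 ± 27.5 in APC1 (0, 28.8 and 86.1), and higher in VEC in 12 of 15 mice. Hoxd10 was higher in 9 and lower in 2.

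Without the filter 5 members were called higher and 8 lower in VEC than in APC1, where 5.22% of all genes were called higher and 13.1% lower. Lower were Hoxc5 (-1.93 ± 0.18, adjusted p = 8.82e-22), Hoxc9 (-1.85 ± 0.28, adjusted p = 7.02e-09), Hoxc6 (-1.78 ± 0.26, adjusted p = 2.58e-09), Hoxc10 (-1.55 ± 0.31, adjusted p = 1.54e-05), Hoxc8 (-1.28 ± 0.36), Hoxc11 (-1.20 ± 0.36), Hoxa10 (-1.15 ± 0.28) and Hoxa9 (-0.91 ± 0.29). Higher were Hoxd10 (1.16 ± 0.32, adjusted p = 0.00984), Hoxa5 (1.06 ± 0.31, adjusted p = 0.0262), Hoxb8 (0.93 ± 0.34, adjusted p = 0.0475), Hoxb7 (0.81 ± 0.28, adjusted p = 0.0251) and Hoxa3 (0.50 ± 0.17, adjusted p = 0.0182). Of the 8 lower members 6 were HoxC genes, and 0 HoxC genes were called higher. Each peak of Hoxc6, Hoxc8, Hoxc9 and Hoxc10 also counted for another gene, and Hoxc5 spans them, so these calls are not independent. In the filtered fit 1 of 8 was higher, Hoxa3 (0.54 ± 0.16), and 6 lower, against 7.92% and 16.0% of all genes, with Hoxc5 at -1.90 ± 0.17 (adjusted p = 1.16e-21).

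Hoxc5 and Hoxc9 kept their calls in VEC under the alternatives tried for them. Without TMM factors 9 members were called higher and 7 lower, and the median of all genes moved from -0.13 to 0.03. With nuclei of at least 2000 counts, Hoxc6 (-0.96, adjusted p = 0.0815), Hoxc10 (-0.98, 0.169), Hoxa10 (-0.51, 0.565), Hoxa9 (-0.27, 0.824) and Hoxd10 (0.52, 0.697) were not called.

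Leaving out the D3_C mice took the VEC calls from 13 to 7, and ended those of Hoxa5 (0.86, adjusted p = 0.196), Hoxd10 (1.02, 0.0968), Hoxb7 (0.71, 0.166), Hoxb8 (0.77, 0.258), Hoxc11 (-1.14, 0.0837) and Hoxa9 (-0.64, 0.268). Without the D0_RT mice Hoxa5 (0.0508), Hoxb7 (0.0911) and Hoxb8 (0.60, adjusted p = 0.314) were not called, and without the D1_CL mice neither were Hoxa3 (0.149, and 0.0871 in the filtered fit), Hoxa5 (0.151) and Hoxc11 (0.0554). Leaving out D1_C or D3_CL ended the calls of Hoxb8 (0.105 and 0.255) and Hoxc11 (0.0854 and 0.0803), and D3_CL that of Hoxb7 (0.0524). The summed adipocyte markers were at 571 ± 210.5 gene CPM in VEC and 394 ± 118 in APC1, and their part in these results was not tested.

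The VSMC cluster, with the markers of skeletal muscle, was low in HoxB and high in Hoxa5 and Hoxc11. Its 10 libraries came only from treated mice (3 of D3_C, 2 of D7_C, 1 of D1_CL, 3 of D3_CL and 1 of D7_CL). No library came from D0_RT or D1_C, while APC1 had libraries from every group. Hoxb4 had 3 counts in 2 of the 10 VSMC libraries, against 53 counts in 12 of 20 APC1 libraries. Hoxb7 had 3 counts, Hoxb2 4 and Hoxb8 1, and the HoxB peaks summed to 0 peak CPM in the lowest library, 39.9 in the median and 233 in the highest. Hoxa5, a gene of lung development and of adipose tissue, had 18 counts in 9 of 10 libraries, at 50.2 ± 53.5 gene CPM (0, 29.8 and 181 as lowest, median and highest), against 8.16 ± 17.9 in APC1 (0, 0 and 76.0). Hoxc11, a hind limb gene, was at 51.6 ± 34.1 (0, 56.7 and 92.8) against 19.8 ± 27.6 in APC1 (0, 5.58 and 86.1). For both genes the ranges overlapped.

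Without the filter 3 members were called higher in the VSMC cluster than in APC1 and 6 lower, against 12.9% and 17.0% of all genes. In neither direction did the share of members called exceed that of all genes. Higher were Hoxa5 (1.51 ± 0.29, adjusted p = 0.00016), Hoxc11 (1.22 ± 0.29, adjusted p = 0.00087) and Hoxa3 (0.49 ± 0.17, adjusted p = 0.0157). All 6 lower members were HoxB genes, Hoxb4 (-1.95 ± 0.40, adjusted p = 1.88e-05), Hoxb7 (-1.55 ± 0.39, adjusted p = 0.000582), Hoxb2 (-1.24 ± 0.38), Hoxb6 (-1.21 ± 0.37), Hoxb5 (-1.12 ± 0.38) and Hoxb3 (-1.06 ± 0.38). With 3 to 7 counts each in the VSMC cluster, these fitted values depend on the prior count and are no bound. In the filtered fit 1 of 8 was higher, Hoxa3 (0.48 ± 0.16, adjusted p = 0.0125), and 0 lower, against 16.8% and 22.4% of all genes. Hoxa3 was not called, in that fit or without the filter, with at least 30 nuclei per library (0.28 in the filtered fit, adjusted p = 0.355), with peaks near gene starts alone (0.37, 0.333) or with nuclei of at least 2000 counts (0.47, 0.0891).

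Without the D3_C mice, which gave the 2 largest libraries of this cluster, Hoxb4 was still called (-1.38, adjusted p = 0.0476), while Hoxc11 (1.01, 0.0575), Hoxb2 (-0.98, 0.167), Hoxb3 (-0.43, 0.576), Hoxb5 (-1.12, 0.125) and Hoxb6 (-1.13, 0.103) were not. Hoxb3 was also not called without the D1_CL mice (-0.87, adjusted p = 0.0888) and Hoxb5 not without the D3_CL mice (0.0703). Hoxb3 moved to -1.62 without the D3_CL mice (adjusted p = 0.00201), 1 of whose libraries held 4 of its 7 counts.

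Within the immune clusters Hox levels were low and uneven, and B cells had the lowest sum. Hoxc6 was at 17.3 ± 15.7 in T cells, 13.6 ± 20.4 in Cd4 and 20.9 ± 17.2 in Cd8 T cells and 3.33 ± 3.17 in B cells, and the T lineage was higher in 20 of 20 mice.

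Without the filter 8 of the 36 members were called higher in macrophages than in B cells and 0 lower, against 27.3% of all genes called higher and 28.3% lower, so the share of members called higher did not exceed that of all genes. Among them were Hoxc5 (0.73 ± 0.19, adjusted p = 0.000363), Hoxc6 (0.72 ± 0.20), Hoxa3 (0.57 ± 0.15) and Hoxb3 (0.44 ± 0.17), and Hoxd8, Hoxb4 and Hoxc8 were also called. In single mice Hoxc6 was higher in 10 of 21 and lower in 8, Hoxd8 higher in 7 and lower in 9, Hoxb3 higher in 6 and lower in 8, and Hoxc8 higher in 4 and lower in 4, so these signs did not hold in most mice. Without the D7_CL mice 5 members were called. Hoxb3 was not called without the mice of D0_RT (0.25, adjusted p = 0.26) or D1_CL (0.144), Hoxd8 not without D0_RT (0.0892) or D7_CL (0.0522), Hoxb4 not without D0_RT (0.102), D1_C (0.0873), D3_C (0.0642) or D7_CL (0.124), and Hoxc8 not without D3_C (0.0837), D7_C (0.0887), D1_CL (0.0807) or D7_CL (0.1). In the filtered fit 4 of 8 were higher and 0 lower, against 30.8% and 31.4% of all genes, with Hoxc5 at 0.80 ± 0.18 (adjusted p = 6.15e-05), Hoxc6 at 0.77 ± 0.20, Hoxa3 at 0.65 ± 0.14 and Hoxa7 at 0.45 ± 0.18, the last not called without the D1_CL mice (0.36, adjusted p = 0.108).

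In the T lineage (the mean of the T cell, Cd4 and Cd8 clusters) 19 of the 36 members were called higher than in B cells without the filter and 0 lower, against 24.6% of all genes called higher and 29.9% lower. Among the larger differences were those of Hoxc6 (0.98 ± 0.11, adjusted p = 8.69e-16), Hoxc5 (0.94 ± 0.10, adjusted p = 1.09e-17), Hoxc9 (0.68 ± 0.10) and Hoxa10 (0.48 ± 0.11), and 14 more ran from 0.15 (Hoxb2) to 0.47 (Hoxa3). Without the D0_RT mice Hoxb2 (0.09, adjusted p = 0.374), Hoxb7 (0.242), Hoxb8 (0.13), Hoxd1 (0.0602) and Hoxd9 (0.1) were not called, without the D1_CL mice Hoxc10 (0.0724) and Hoxd8 (0.0657) were not, and without the D1_C mice Hoxc8 (0.0501) was not. Over the alternatives without the filter, Hoxb7 lost its call in 8 of 12 (adjusted p up to 0.752), Hoxb2 in 7 of 12 (up to 0.551), Hoxb8 in 5 of 11, Hoxd1 in 5 and Hoxd9 in 3 of 12, while Hoxc5, Hoxc6, Hoxc9, Hoxa10, Hoxa3 and Hoxb9 kept theirs in each of 12. Hoxd3 and Hoxd4 were at 0.02 with peaks near gene starts alone (adjusted p = 0.995). With the filter 7 of 8 were higher and 0 lower, against 30.7% and 33.8% of all genes. Counting only peaks that belong to 1 gene, Hoxc5 was at 0.09 in the T lineage (adjusted p = 0.514) and 0.14 in macrophages (0.549).

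Adipocyte markers also differed among the immune clusters, in another order than the summed Hox peaks. Both were lowest in B cells, but the markers were highest in macrophages and the Hox peaks in dendritic cells. The marker sum was 196 ± 19.4 gene CPM in B cells, 211 ± 33.3 in Cd8, 235 ± 44.7 in T cells, 246 ± 56.0 in Cd4, 339 ± 91.2 in dendritic cells and 415 ± 135 in macrophages. The part of the adipocyte markers in the immune differences was not tested.

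Partners and regulators of Hox proteins were read from 3 lists. TALE homeodomain proteins (Meis, Pbx and Pknox) bind DNA together with Hox proteins, and 6 of 9 such genes passed the filter. In adipocytes and stroma against immune cells 4 of them were higher and 1 lower, where 36.1% of all genes were called higher and 45.8% lower, with Pknox2 at 3.16 ± 0.11 and Meis2 at 2.84 ± 0.15. Of 12 genes of depot and limb patterning 3 passed the filter, which a gene could do through the clusters where it was high, and these were higher, Tbx15 (3.30 ± 0.14), which patterns skeleton and subcutaneous fat, Prrx1 (2.81 ± 0.12), of limb mesenchyme, and Emx2 (2.17 ± 0.13). Of 23 upstream and chromatin regulators 15 were tested, and 2 were higher and 9 lower, with the retinoic acid receptor Rarb at 1.92 ± 0.09 and the Polycomb genes Cbx7 at -1.08 ± 0.06 and Ezh2 at -0.59 ± 0.07. Without the filter 9 TALE genes had 4 higher and 3 lower, 10 patterning genes 8 higher and 1 lower, and 21 regulators 3 higher and 10 lower, against 33.3% and 38.1% of all genes.

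In VEC, low in HoxC, where 7.92% of all genes were called higher and 16.0% lower than in APC1, 3 TALE genes were called and these were lower, among them Pknox2 (-2.29 ± 0.20) and Meis1 (-1.31 ± 0.20). All 3 patterning genes tested were lower too, Tbx15 (-2.45 ± 0.24), Prrx1 (-1.79 ± 0.25) and Emx2 (-1.47 ± 0.32), while 2 regulators were higher and 1 lower. Without the filter 4 of 9 TALE and 6 of 10 patterning genes were lower in VEC and 0 higher, against 13.1% and 5.22% of all genes. In the VSMC cluster, against a background of 16.8% higher and 22.4% lower, 1 TALE gene was higher (Pknox2, 0.35 ± 0.12) and 2 lower (among them Meis2, -2.04 ± 0.28), Emx2 was the 1 patterning gene called (-1.37 ± 0.31), and 2 regulators were higher and 2 lower. In beige against white adipocytes, against 10.3% higher and 21.7% lower, 0 TALE genes were higher and 2 lower (among them Pknox2, -0.37 ± 0.09), Tbx15 was lower (-0.30 ± 0.08), and 1 regulator was higher (Rarb, 0.80 ± 0.07) and 3 lower.

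The counts that follow are set beside the share of all genes called in the same filtered fit. APC1 against white adipocytes (20.1% higher and 32.6% lower) had 3 TALE genes higher and 2 lower, with Pknox2 at 1.37 ± 0.09, the 3 patterning genes tested higher, with Emx2 at 1.07 ± 0.16, and 3 regulators higher and 3 lower. APC2 against APC1 (15.1% and 10.7%) had 2 TALE genes higher (Pknox2, 0.59 ± 0.10, and Meis2, 0.42 ± 0.15), 0 patterning genes called and Cbx7 higher (0.79 ± 0.18). Macrophages against B cells (30.8% and 31.4%) had 4 TALE genes higher and 1 lower, 3 patterning genes higher, and 2 regulators higher and 9 lower. The T lineage against B cells (30.7% and 33.8%) had 1 TALE gene higher and 2 lower, 0 patterning genes called, and 4 regulators higher and 4 lower, with Rarg at 1.74 ± 0.06.

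Few members were called in adipocytes after cold or CL. White and beige nuclei were summed per mouse for this comparison, 14409 genes were tested and 28 of the 36 members were among them. The 6 comparisons with day 0 share the same 3 day 0 mice. After cold, 0 members were called at day 1 (5 at an unadjusted p under 0.05), 0 at day 3 (4 unadjusted) and 0 at day 7 (4 unadjusted), where 0.34%, 1.64% and 5.09% of all genes were called. After CL, 1 was called at day 1, 2 at day 3 and 0 at day 7 (4 unadjusted), where 2.61%, 4.78% and 7.8% of all genes were called. DESeq2 called 0 members in each of the 6, with 0 to 4 at an unadjusted p under 0.05. It also called fewer of the 14409 genes than edgeR did. After cold DESeq2 called 3, 14 and 136 genes higher and 1, 13 and 102 lower at days 1, 3 and 7. After CL it called 34, 95 and 138 higher and 53, 49 and 72 lower.

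Hoxb4 was called lower after 1 and 3 days of CL. Its level was 59.4, 59.8 and 59.0 gene CPM in the 3 day 0 mice. It was 41.0, 28.1 and 34.3 after 1 day of CL, 43.8, 37.1 and 37.6 after 3 days and 39.0, 52.1 and 39.7 after 7 days, so that all CL mice were below the day 0 mice. After cold it was 36.6, 57.1 and 48.4 at day 1, 41.5, 50.3 and 48.1 at day 3 and 40.7, 54.0 and 42.9 at day 7, also below day 0 in every mouse. The day 0 mice lay close together, with an SD of 0.388 against 3.73 to 10.3 in the other groups.

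The log2 difference of Hoxb4 was -0.78 ± 0.22 after 1 day of CL (adjusted p = 0.0339), -0.60 ± 0.17 after 3 days (adjusted p = 0.0261) and -0.47 ± 0.17 after 7 days (adjusted p = 0.0748). After cold it was -0.41 ± 0.20, -0.42 ± 0.17 and -0.39 ± 0.18, with adjusted p-values of 0.495, 0.21 and 0.233. Leaving out day 0 mouse 1, 2 or 3 ended both CL calls, with adjusted p-values of 0.0651, 0.0635 and 0.135 at day 1 and 0.0842, 0.0593 and 0.152 at day 3, and so did DESeq2 (0.298 and 0.299). The day 1 call was also lost without D1_CL mouse 2 (0.0597) or 3 (0.625), and the day 3 call without D3_CL mouse 2 (0.127) or 3 (0.0524).

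The start peak of Hoxb4 was at 21.6, 30.7 and 21.9 peak CPM in the day 0 mice, 0, 13.3 and 11.3 after 1 day of CL and 15.6, 13.1 and 15.8 after 3 days, and its second peak at 26.6, 16.7 and 24.7, 32.1, 8.84 and 15.8 and 19.1, 15.8 and 13.6. Only the start peak had groups that did not overlap. The first mouse after 1 day of CL, with the values 0 and 32.1, had a library of 29 nuclei. The other values of the second peak on that day, 8.84 and 15.8, lay below the day 0 mice. B cell markers were read beside Hoxb4, since its start peak was open in B cells. Their summed level in the adipocyte libraries was 152, 113 and 123 gene CPM at day 0, 82.0, 67.5 and 70.8 after 1 day of CL, 98.6, 118 and 108 after 3 days and 138, 121 and 137 after 7 days, against 1190 ± 71.8 in B cells. Beige nuclei were 9.11% of adipocyte nuclei at day 0, 14.1% after 1 day of CL and 10.5% after 3 days. The part of either in the Hoxb4 values was not tested.

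Hoxb9, a gene of the lower thorax, was at 16.4, 17.6 and 20.8 gene CPM at day 0 and 13.1, 8.94 and 5.61 after 3 days of CL, groups that did not overlap, with a log2 difference of -1.03 ± 0.33 (adjusted p = 0.0471). It was 41.0, 5.63 and 11.4 after 1 day of CL, where the first mouse had a library of 29 nuclei. Leaving out day 0 mouse 1 (adjusted p = 0.0894), 2 (0.08) or 3 (0.312) or D3_CL mouse 2 (0.104) or 3 (0.17) ended the call, as did leaving out D1_CL mouse 3 (0.0501), D7_CL mouse 2 (0.051) or D7_C mouse 1 (0.051) or 3 (0.0515), and DESeq2 (0.326).

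**Figure D5:**
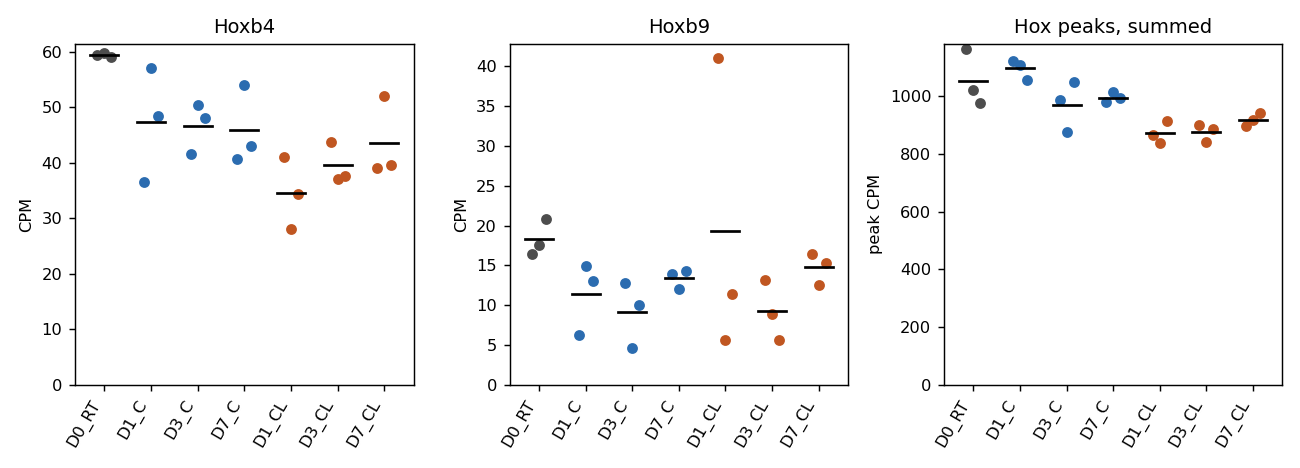
Hoxb4 and Hoxb9 (gene CPM) and the sum of all 103 Hox peaks (peak CPM) in the adipocyte libraries of the 7 groups; each point is 1 of 3 mice and the bar is the mean. Hoxb4 stands at 59.0 to 59.8 in the day 0 mice and at 52.1 or below in the CL mice.

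Across the 28 tested members the median log2 difference after cold was 0.14, -0.03 and -0.08 at days 1, 3 and 7, and after CL -0.18, -0.19 and -0.12, with medians over all genes between -0.01 and 0. After CL 23, 23 and 18 of the 28 were below 0, many of them sharing peaks. The sum of all Hox peaks was 1165, 1022 and 977 peak CPM at day 0, 867, 839 and 914 after 1 day of CL, 901, 842 and 885 after 3 days and 898, 917 and 944 after 7 days, all below the day 0 mice. After cold it was 1124, 1110 and 1058, then 987, 875 and 1050, then 979, 1013 and 992, overlapping with day 0 at each day. These sums were not tested.

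At the same day, CL and cold differed in 0 members at days 1, 3 and 7, with 7, 6 and 2 at an unadjusted p under 0.05, and DESeq2 gave 0 calls with 4, 0 and 1. Of all genes edgeR called 0.923%, 1.45% and 0.111%, while DESeq2 called 4, 7 and 0 genes higher and 4, 2 and 0 lower. The median difference over the members was -0.28, -0.15 and -0.08, and 25, 24 and 21 of 28 were lower with CL. Among the 9 TALE, 6 patterning and 21 regulator genes tested, Meis1 was higher after 1 day of CL than at day 0 (0.49 ± 0.13, adjusted p = 0.0262) and Pknox2 after 3 days (0.53 ± 0.13, adjusted p = 0.00596). Rarb, a retinoic acid receptor, was higher after 3 days of CL (0.44 ± 0.14, adjusted p = 0.0477), 7 days of CL (0.59 ± 0.14, adjusted p = 0.00302) and 7 days of cold (0.75 ± 0.14, adjusted p = 0.000212). Its paralog Rarg was lower after 7 days of CL (-0.61 ± 0.15) and of cold (-0.49 ± 0.16). Beige nuclei were 9.11% of adipocyte nuclei at day 0, 10.5% after 3 and 20.5% after 7 days of CL and 29.3% after 7 days of cold. In beige against white adipocytes Rarb was higher (0.80 ± 0.07) and Rarg lower (-0.47 ± 0.09). The part of the beige share in these differences was not tested. Suz12, a Polycomb gene, was lower after 7 days of CL (-0.59 ± 0.19, adjusted p = 0.0336). With CL against cold, Prrx1 was lower at day 1 (-0.75 ± 0.17, adjusted p = 0.00843) and Pknox2 higher at day 3 (0.46 ± 0.10, adjusted p = 0.00508).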

How the data were processed

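Single-nucleus ATAC-seq of inguinal fat from 21 mice was analysed from the matrix, peak list and annotation of nuclei that the authors deposited. The authors aligned reads to mm10 with Bowtie2, kept confident alignments, and removed duplicates and mitochondrial reads. They called peaks with MACS2 for each initial cluster (250 bases on each side of a summit), removed doublets with Scrublet and clustered the nuclei with Signac. The labels also name Bowtie2, MACS2, Signac and mm10. With peaks called for each cluster, small clusters could add fewer peaks of their own. The deposited counts are binary, 1 where a nucleus had reads in a peak, and carry no normalization. The 4 records of the series are sequencing lanes that pool all mice, so mouse, group and cluster were taken from the deposited annotation.

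Counts of peaks on a GENCODE gene body or up to 2 kb upstream were summed per gene, mouse and cluster for sums of at least 10 nuclei. Each count of a peak is a nucleus, but a nucleus can add a count to a gene for each peak of that gene. Gene counts are thus not separate nuclei, and precision is limited by the nuclei of a library. Intervals and limits cover counting error only. Genes were tested, two-sided, with edgeR 4.0.16 (R 4.3.3, quasi-likelihood, TMM, prior count 2, filterByExpr at 10 counts, 15 in total and 0.7 of libraries), with Benjamini-Hochberg adjustment over all genes and a threshold of 0.05. Comparisons of cell types used all 12 clusters in 1 fit with the mouse as block, and comparisons of treatments used the group. "Without the mice of a group" means a refit without its 3 mice. Alternatives used DESeq2 1.42.0, no filter, no TMM factors, peaks within 2000 bases of a gene start, peaks of 1 gene, nuclei of at least 2000 counts, at least 30 nuclei, the group in place of the mouse, and fewer libraries. The scripts were tested on simulated data, in which only genes with higher counts were changed. For 7 days of CL against day 0, 38.9% of changes at a log2 difference of 1 were called and 94.55% at 2. A count of 0 calls after treatment thus does not show that smaller differences were absent. False calls were 3.27% to 7.83% of calls over the fits tried.

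Members and lists were chosen with earlier results of these data known. Of members past the threshold, the 5 with the largest differences in a comparison were given with their values, as were those against the majority where these were 5 or fewer, and of each list up to 3 genes. The Hox peaks singled out were chosen after their values were seen, as were the sequences shown. The planned peak test over all libraries left no Hox peak, so 2 summed libraries per mouse were used. Some genes and sequences are not reported here.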

Additional observations from a re-analysis of the deposited data

Results flagged for a closer look

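The VSMC cluster, with 10 small libraries, was the one cluster of a size that this check covers (4 to 10 libraries), and 7 of 14 values examined there had a library far from the rest. For each, the gap to the nearest other library was over 0.466 of the group's range, Dixon's critical value for 10 samples. Chance passes it in about 1 of 20 groups of normal values. That rate does not apply to levels from few counts, where 1 count was worth 5.92 to 90.3 gene CPM by library. The D1_CL mouse 3 library, with 14 nuclei and 11074 gene counts, gave the highest Hoxa5 (181 gene CPM), Hoxa3 (542 gene CPM), Hoxb4 (90.3 gene CPM) and HoxA peaks (685 peak CPM), from 2 counts for Hoxa5, 6 for Hoxa3 and 1 for Hoxb4. The D7_C mouse 1 library, with 22 nuclei and 47364 gene counts, gave the highest Hoxb7 (21.1 gene CPM, 1 count) and Hoxb2 (63.3 gene CPM, 3 counts). The D3_CL mouse 2 library, with 10 nuclei and 14801 gene counts, gave the highest Hoxb3 (270.25 gene CPM, 4 counts). Without the D1_CL mice, 8 members were called between the VSMC cluster and APC1 in place of 9, with Hoxa3 at 0.54, Hoxa5 at 1.47 and Hoxb4 at -2.03, and without the D7_C mice 10 were called, with Hoxb2 at -1.73 and Hoxb7 at -1.55. Without the D3_CL mice Hoxb3, at -1.06 with them, was at -1.62 (edgeR, adjusted p = 0.00201), and the D3_CL mouse 2 library held 4 of the 7 Hoxb3 counts of the cluster. Clusters with more libraries were not tested in this way, and single libraries stood far off there as well, such as a lowest HoxA sum of 51.2 peak CPM in beige adipocytes (median 356) and a highest sum over the central genes of 248 peak CPM in Cd4 T cells (median 60.1).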

How the results depend on the processing

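Counts of members called are given in the order adipocytes and stroma against immune cells, beige against white, APC1 against white, APC2, VEC and the VSMC cluster against APC1, macrophages and the T lineage against B cells, for which the filtered fit called 8, 1, 2, 2, 7, 1, 4 and 7. Without the filter the counts were 33, 6, 7, 6, 13, 9, 8 and 19, since 36 rather than 8 members were tested. With peaks near gene starts alone, 5 were called in the first comparison, 1 in APC1 against white adipocytes, 0 in APC2, 3 in VEC and 0 in the VSMC cluster. With peaks of 1 gene alone, 3 were called in the first, 1 in APC1 against white, 1 in APC2, 2 in VEC, 0 in the VSMC cluster, 1 in macrophages and 2 in the T lineage. With nuclei of at least 2000 counts, 0 were called in APC1 against white, 2 in VEC and 0 in the VSMC cluster. With at least 30 nuclei per library, 19 were called in the first, 5 in beige, 3 in VEC, 5 in the VSMC cluster, 9 in macrophages and 16 in the T lineage. Using fewer libraries, chosen after seeing the data, gave 22 in the first (2 summed libraries per mouse), 0 in APC2, 1 in VEC, 0 in macrophages and 2 in the T lineage. In APC1 against white it gave 2, other members than before and both higher in place of lower. For peaks it gave 32 calls over 39 tests, 31 in the first comparison and 1 in beige, and without the filter 101 of 103 Hox peaks were called in the summed libraries. DESeq2 called 0 in beige. The cause of these changes was not tested beyond the number of members that each choice left. Hoxc5 in APC1 against white adipocytes turned from -0.25 to 0.11 without TMM factors. With the treatment group in place of the mouse (no replicate block) the counts were 8, 1, 2, 2, 7, 1, 4 and 7.

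Leaving out the mice of 1 group gave 7 to 9, 0 to 2, 0 to 3, 1 to 2, 6 to 7, 1 to 3, 3 to 4 and 7 to 8. After treatment, 3 calls against day 0 became 0 with DESeq2, 0 with peaks near gene starts, 1 with nuclei of at least 2000 counts and 0 to 3 without 1 mouse. CL against cold, with 0 calls, had 1 with peaks of 1 gene, 1 with white nuclei alone, 1 with only the groups compared and 0 to 1 without 1 mouse. Replicate numbers did not pair the mice: of 63 pairs of same-numbered mice, 1 correlated above 0.1 in its deviations from the group means, and the replicate block left 2 calls against day 0 and 0 between CL and cold. The planned peak test over all libraries tested 0 Hox peaks, and 20 were called with at least 30 nuclei. The ratio of adipocytes and stroma to immune cells, 5.68 for all Hox peaks, was 4.72 with peaks near gene starts and 4.56 as a share of nuclei, the anterior ratio moved from 3.75 to 2.72 and 5.38, and the posterior ratio was 11.1 as a share of nuclei. Depth limits these values: in VEC the call of Hoxd10 rested on 17 counts, and in the VSMC cluster that of Hoxb4 on 3.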
